A study of Mus musculus with 9 samples.

Results

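Vessels of the striatum were followed through 10 genes of endothelial and mural cells in RNA-seq of *Shank3* mutant mice. The genes were chosen by name for the cells that use them, though earlier results of these data were known. *Cldn5*, *Slc2a1*, *Pecam1*, *Flt1*, *Kdr*, *Tek* and *Eng* stood for endothelial cells, and *Pdgfrb*, *Rgs5* and *Acta2* for pericytes and arteriolar smooth muscle. They were found by Ensembl identifier among the 15464 genes of the table, and each of the 10 was among the 14239 genes that passed the filter on low values (10 or more normalized counts in 3 or more libraries). The tissue was whole dissected striatum of male littermates of the *Shank3B* line in a C57BL/6J background, aged 10 to 12 weeks. There were 3 WT, 3 HET and 3 KO mice and 1 library per mouse. HET mice carry a targeted *Shank3* allele beside an intact one, and KO mice carry the targeted allele on both chromosomes. The allele targets a stretch of exons inside the gene and is present in every cell of the animal, so that it is not specific to neurons or to vessels.

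The wall of a brain capillary is a single layer of endothelial cells joined by tight junctions, with pericytes embedded in the basement membrane around it. Endothelial cells carry receptors for vascular endothelial growth factor and angiopoietins and attract pericytes by secreting platelet-derived growth factor B, while contractile smooth muscle wraps the arterioles. Together with astrocyte endfeet these cells form the blood-brain barrier, which lets glucose pass through a transporter and keeps most blood-borne molecules out.

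*Acta2* and *Eng* had the widest spread between mice of the 10 genes, and the sequence before the start of each gene is shown for that reason. *Acta2* encodes the actin of contractile smooth muscle. The CArG box, to which serum response factor binds, is a known element of smooth muscle promoters, and the sequences below were searched for it on both strands in the 250 bases before the start of each gene in RefSeq (GRCm38.p6). The promoters of 8 of the 10 genes were searched, and those of *Pecam1* and *Pdgfrb* were not. The strict form of the box has A or T at each of its 6 middle bases. It was found in 0 of the 8 and in 1.47% of 32851 promoters of the same length. After that result the search was loosened to allow G or C at 1 of the 6 middle bases, and the loosened form was found in 3 of the 8, *Acta2*, *Eng* and *Kdr*, and in 8.59% of all promoters. *Acta2* held 2 such matches, at 84 and 34 bases before its start, and at least 2 matches were found in 0.67% of promoters. Positions are counted from the RefSeq start. GENCODE places the start of *Acta2* further upstream, so that 217 of its 250 bases, and both matches, lie inside the gene in that annotation, which gives the gene's coordinates further on. Capitals mark the matches in windows of 30 bases before *Acta2*, on the minus strand at chr19:34255438-34255467 and chr19:34255388-34255417, before *Eng*, on the plus strand at chr2:32646382-32646411, and before *Kdr*, on the minus strand at chr5:75978672-75978701. The last line is the strict form before *Myl9*, a smooth muscle myosin light chain gene, on the plus strand at chr2:156775293-156775322.
Acta2, match at 84: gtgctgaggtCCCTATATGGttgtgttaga
Acta2, match at 34: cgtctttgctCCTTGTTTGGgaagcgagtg
Eng: agaccttgtcCCCTATAAGGttgccagatg
Kdr: gtctcagagcCCATTACTGGctacatttta
Myl9: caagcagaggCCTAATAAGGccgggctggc
*Myl9* was the only one of the 7 smooth muscle genes searched to hold either form. The smooth muscle genes *Myh11*, *Tagln* and *Map3k7cl* were not searched. In GENCODE, 250 of the 250 bases searched for *Mylk* and 211 of those for *Tpm2* lie inside the gene. The sequence just after the RefSeq start of *Des* was not found in its annotated transcripts. A missing match in these genes therefore does not describe the bases before their GENCODE start. The matches shown describe the letters alone, and no binding was measured.

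The values are normalized counts per gene, that is, read counts estimated by the authors and divided by a factor for each library. The sum per library lay between 30830020 and 33790296 normalized counts after this scaling, so the depth in reads is not known from them and the precision rests on the spread between the 3 mice of a genotype. *Shank3* itself, summed over all its exons, had normalized counts of 7355 ± 1390 in WT, 7574 ± 476 in HET and 10538 ± 283 in KO (SD, n = 3), and each KO library lay above each WT and HET library (KO against WT log2FC 0.54 ± 0.13, unadjusted p = 0.00195, adjusted p = 0.999, limma with Benjamini-Hochberg adjustment), while WT and HET overlapped. Exons outside the targeted stretch count towards this sum, so that the loss of the targeted exons is not seen in it. The tissue label was checked against 10 genes of striatal projection neurons, whose summed normalized counts lay between 66629 and 151003, and *Pde10a*, the striatal phosphodiesterase, averaged 29148. Over all genes, 0 of 14239 passed an adjusted p of 0.05 in limma with Benjamini-Hochberg adjustment in each of the 3 comparisons (0% called). At an unadjusted p under 0.05, 158 genes (1.11%) passed for HET against WT, 117 (0.822%) for KO against WT and 186 (1.31%) for KO against HET. HET against WT and KO against WT share the 3 WT libraries.

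To compare the genes with each other, normalized counts were divided by the length of the longest annotated coding transcript in kilobases. On this scale *Slc2a1*, the glucose transporter of the barrier, was highest in WT, at 1012 ± 177 normalized counts per kilobase (SD, n = 3). *Rgs5*, a regulator of G-protein signalling abundant in pericytes, followed at 654 ± 62.2 and *Cldn5*, the main claudin of brain endothelial tight junctions, at 518 ± 76. *Flt1* was at 339 ± 4.38 and *Eng* at 285 ± 45.3. *Acta2*, *Pdgfrb* and *Pecam1* lay close together at 225 ± 58.4, 207 ± 18.1 and 190 ± 21.9. *Tek* at 114 ± 6.96 and *Kdr* at 76.6 ± 8.48 were the lowest. In this order the WT ranges of neighbours overlapped between *Rgs5* and *Cldn5*, *Eng* and *Acta2*, *Acta2* and *Pdgfrb*, and *Pdgfrb* and *Pecam1*, so that these neighbours were not separated by the spread between mice, while the other neighbours did not overlap. The length used is that of 1 transcript, and a gene whose shorter isoforms dominate would stand too low.

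**Figure D1:**
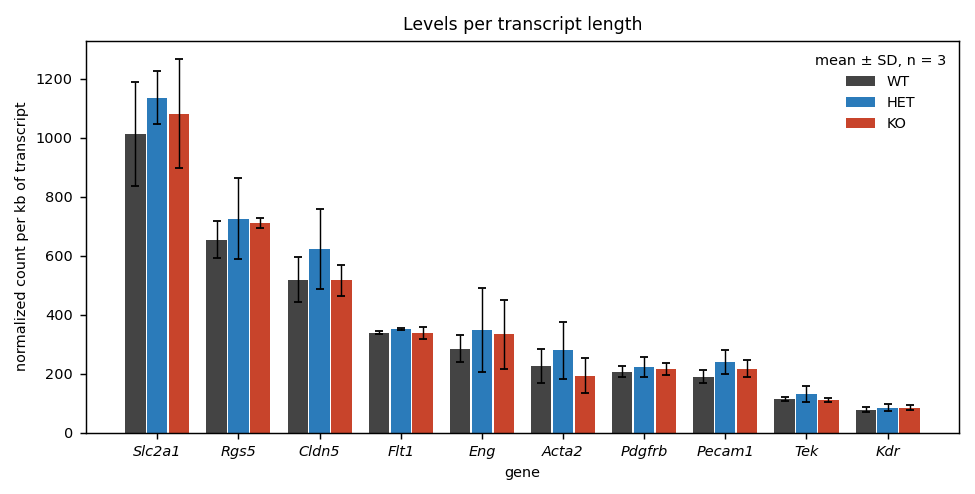
Normalized count per kilobase of transcript (y axis) for the 10 genes (x axis), with bars for the mean and error bars for the SD of 3 mice of WT, HET and KO. *Slc2a1* stands at 1012 in WT and *Kdr* at 76.6, and the bars of the 3 genotypes lie within or near each other's errors for each gene.

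Among the barrier genes, *Cldn5* had normalized counts of 615.6, 826.9 and 756.4 in the WT libraries, 679.9, 1060 and 905.4 in HET, and 652.5, 803.1 and 736.3 in KO, in the order of their replicate numbers. The first library was the lowest and the second the highest in each genotype, and the 3 groups overlapped. The log2FC was 0.25 ± 0.17 (SE) for HET against WT (95% interval -0.13 to 0.64) and 0.00 ± 0.17 for KO against WT. For KO against HET it was -0.25 ± 0.17 (unadjusted p = 0.174, adjusted p = 1, limma with Benjamini-Hochberg adjustment). *Slc2a1* had 3961, 3023 and 2915 in WT, 3893, 3365 and 3851 in HET, and 4215, 3108 and 3257 in KO. Its first library was the highest in each genotype, opposite to *Cldn5*, and the groups overlapped. The log2FC of *Slc2a1* was 0.18 ± 0.15 for HET and 0.10 ± 0.15 for KO against WT. *Slc2a1* is also used by astrocytes, so its count in whole tissue does not come from vessels alone.

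*Pecam1*, an adhesion molecule at endothelial cell contacts that platelets and some leukocytes also carry, had normalized counts of 631, 737.8 and 592.1 in WT, 692.6, 806.4 and 969.6 in HET, and 748.9, 648.5 and 839.6 in KO. HET replicate 3 was the highest, and only the second WT library reached into the range of the HET mice. The group means were 654 ± 75.4, 823 ± 139 and 746 ± 95.6 (SD, n = 3). For HET against WT the log2FC was 0.32 ± 0.15 (95% interval -0.01 to 0.66), the smallest p of the 10 genes in this fit without a replicate block (unadjusted p = 0.0565, adjusted p = 0.999, limma with Benjamini-Hochberg adjustment). Without HET replicate 3 its log2FC was 0.20 and without HET replicate 1 it was 0.44. In an exact two-sided permutation test of the same values p was 0.2, where 3 against 3 mice cannot go below 0.1. In whole tissue, more endothelial cells and more of this RNA per cell cannot be told apart, and the same holds for each value given here.

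**Figure D2:**
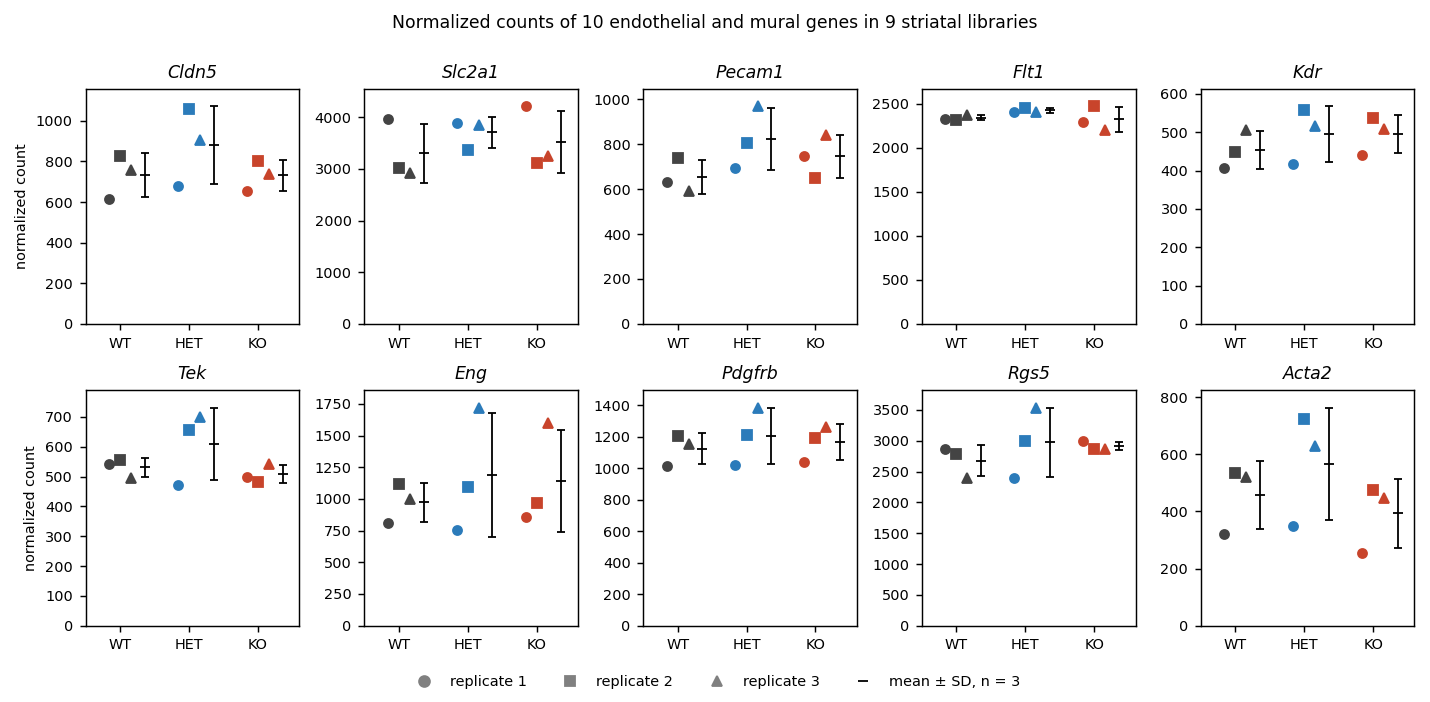
Normalized counts (y axis, from 0) of the 10 genes in the 9 libraries by genotype (x axis), with circles, squares and triangles for replicates 1, 2 and 3 and a dash with error bars for the mean ± SD of 3 mice. *Flt1* lies between 2201 and 2473 in every library, while *Eng* reaches 1720 and 1603 in the third HET and KO libraries and *Acta2* is lowest in the first library of each genotype.

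The receptors for vascular endothelial growth factor differed in how steady they were. *Flt1* (VEGFR1), which binds the ligand tightly and signals weakly, had normalized counts of 2331, 2315 and 2373 in WT, 2409, 2454 and 2410 in HET, and 2290, 2473 and 2201 in KO. Each HET library lay above each WT library, by 1.04-fold between the group means of the log values, and 633 of all genes (4.45%) also had no overlap between the HET and WT libraries. Its log2FC was 0.05 ± 0.08 for HET (95% interval -0.12 to 0.23, unadjusted p = 0.525, adjusted p = 0.999, limma with Benjamini-Hochberg adjustment; exact permutation p = 0.1, the smallest that 3 against 3 can give) and -0.01 ± 0.08 for KO against WT. The SD of *Flt1* between mice of 1 genotype was 0.05 on the log2 scale, at percentile 1.28 of all genes tested, where the median of all genes was 0.19 and that of 2150 genes at a like level was 0.15. *Kdr* (VEGFR2), the main signalling receptor, had 405.8, 449.1 and 506 in WT, 416.1, 557.1 and 515.5 in HET, and 439.6, 536 and 508.2 in KO. Its first library was lowest in each genotype and the groups overlapped, with a log2FC of 0.12 ± 0.14 for HET and 0.13 ± 0.14 for KO against WT.

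*Tek* (TIE2), the receptor for angiopoietins, had normalized counts of 541.4, 556.4 and 494.3 in WT, 472.9, 655.9 and 700.5 in HET, and 499.8, 483 and 542 in KO. The HET libraries held both its lowest and its highest value, so that the HET range enclosed the WT and KO ranges. The log2FC was 0.18 ± 0.15 for HET and -0.06 ± 0.15 for KO against WT, and -0.24 ± 0.15 for KO against HET, with a 95% interval from -0.57 to 0.09.

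*Eng* (endoglin), a co-receptor for ligands of the TGF-beta family that is mutated in hereditary haemorrhagic telangiectasia, had normalized counts of 809.2, 1117 and 996.1 in WT, 752.4, 1094 and 1720 in HET, and 858.8, 969.8 and 1603 in KO. The third HET and KO libraries stood far above the other 7 libraries, which lay between 752.4 and 1117. The means were 974 ± 155, 1189 ± 490 and 1144 ± 402 (SD, n = 3), and the log2FC was 0.22 ± 0.30 for HET and 0.19 ± 0.30 for KO against WT. Both directions rested on these libraries: without HET replicate 3 and KO replicate 3 the log2FC was -0.09 for HET and -0.08 for KO. The SD of *Eng* within genotypes was 0.46 on the log2 scale, at percentile 90.6 of all genes, and its highest library was 2.29 times its lowest.

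*Acvrl1* (ALK1), the receptor with which endoglin works and the second gene of the same disease, was the one gene of the vessel lists described below with an unadjusted p under 0.05. Its normalized counts were 1371, 1471 and 984.2 in WT, 1460, 785.1 and 1261 in HET, and 757.7, 462.6 and 588.6 in KO. Each KO library lay below each WT and each HET library, and the WT and HET ranges overlapped. No overlap, in either direction, was found for 646 of all genes (4.54%) between KO and WT and for 633 (4.45%) between KO and HET. The means were 1276 ± 257, 1169 ± 347 and 603 ± 148 (SD, n = 3). The log2FC for KO against WT was -1.09 ± 0.25, with a 95% interval from -1.65 to -0.52 (unadjusted p = 0.00156, adjusted p = 0.999, limma with Benjamini-Hochberg adjustment; exact permutation p = 0.1), and for KO against HET -0.94 ± 0.25 (unadjusted p = 0.00415, adjusted p = 1, limma). It therefore did not pass the adjusted threshold. The unadjusted threshold was passed by 0.822% of all genes for KO against WT and by 1.31% for KO against HET. When single libraries were left out the log2FC for KO against WT lay between -1.27 and -0.91. With all libraries, the log2FC for HET against WT was -0.15 ± 0.25 (95% interval -0.72 to 0.41). *Acvrl1* lies on the chromosome of *Shank3*, with 11.6 Mb between the end of *Shank3* at chr15:89499623-89560261 and the start of *Acvrl1* at chr15:101128522-101145336 (GRCm38). The part of this position in the values was not tested.

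**Figure D3:**
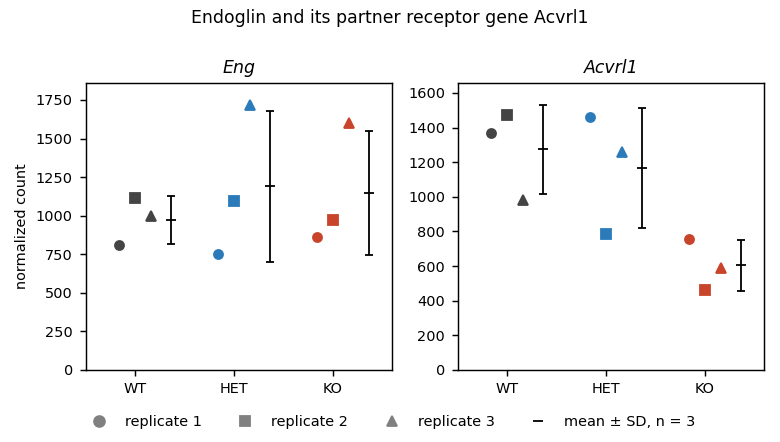
Normalized counts (y axes, from 0) of *Eng* and *Acvrl1* in the 9 libraries by genotype (x axes), with circles, squares and triangles for replicates 1, 2 and 3 and a dash with error bars for the mean ± SD of 3 mice. For *Acvrl1* the 3 KO libraries lie between 462.6 and 757.7, below the lowest HET library at 785.1, while for *Eng* the third HET and KO libraries stand above the rest. Of all genes, 4.54% have no overlap between KO and WT and 4.45% none between KO and HET.

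Among the mural genes, *Pdgfrb*, the receptor through which platelet-derived growth factor B keeps pericytes at the vessel, had normalized counts of 1012, 1201 and 1153 in WT, 1021, 1208 and 1381 in HET, and 1037, 1194 and 1262 in KO. The first libraries of the 3 genotypes were nearly equal and the lowest, and the log2FC was 0.09 ± 0.13 for HET and 0.05 ± 0.13 for KO against WT. *Rgs5* had 2863, 2787 and 2389 in WT, 2400, 2996 and 3524 in HET, and 2990, 2873 and 2872 in KO. The HET libraries spanned from near the lowest WT value to the highest value of all, and the 3 KO libraries, with a mean of 2912 ± 67.8 (SD), lay above the highest WT library, with the lowest KO library above it by less than 10 normalized counts. No overlap between KO and WT was found for 646 of all genes (4.54%), and the log2FC of *Rgs5* was 0.12 ± 0.13 (unadjusted p = 0.376, adjusted p = 0.999, limma with Benjamini-Hochberg adjustment; exact permutation p = 0.1).

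*Acta2* had normalized counts of 321.1, 533.1 and 520.4 in WT, 348, 723.6 and 630.1 in HET, and 255.5, 476.5 and 447.7 in KO. The first library of each genotype was far below the other 2, and within each replicate number HET was highest and KO lowest. The means were 458 ± 119, 567 ± 196 and 393 ± 120 (SD, n = 3), and the groups overlapped. The log2FC was 0.28 ± 0.32 for HET and -0.24 ± 0.32 for KO against WT. For KO against HET it was -0.51 ± 0.32 (95% interval -1.23 to 0.21, unadjusted p = 0.143, adjusted p = 1, limma with Benjamini-Hochberg adjustment), the largest difference of the 10 genes, with KO to HET ratios of 0.734, 0.658 and 0.711 at replicates 1, 2 and 3. It lay between -0.83, without HET replicate 1, and -0.23, without KO replicate 1, when single libraries were left out. Same-numbered HET and KO libraries deviated together across all genes. The fit with the replicate block also blocked the WT libraries by number, which did not deviate with the others at replicates 2 and 3. In that fit the unadjusted p for KO against HET was 0.0007722 and the adjusted p 0.9996 in limma. The difference did not pass the adjusted threshold there either. *Cldn5* behaved in the same manner, with KO to HET ratios of 0.96, 0.757 and 0.813 and an unadjusted p of 0.02519 with the block (adjusted p = 0.9996, limma).

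Counted together, 10 of the 10 genes had a positive log2FC for HET against WT, beside 49.31% of all genes tested. The median was 0.18, against -0.0027 over all genes tested. In other cell types 6 of 6 oligodendrocyte, 3 of 3 blood cell, 5 of 7 choroid plexus and 6 of 10 striatal neuron genes were positive. So were 4 of 7 astrocyte, 3 of 6 microglia, 2 of 5 macrophage and 5 of 13 fibroblast genes. In limma 0 of the 10 passed the threshold after adjustment and 0 before it, beside 0% and 1.11% of all genes. Of the 10, 1, *Flt1*, had no overlap between the groups, beside 4.45% of all genes. The 10 genes come from the same vessels and the same libraries and are not independent of each other. Without HET replicate 3 the count was 8 positive and 2 negative, with a median of 0.08. HET replicate 1 was the lowest HET library for 9 of the 10 genes, so that leaving it out raises their HET means by itself. Without it the median was 0.32. In that fit 4 genes, *Cldn5*, *Pecam1*, *Tek* and *Rgs5*, had an unadjusted p under 0.05 in limma, beside 287 of all genes (2.02%), with 0 past the adjusted threshold. These changes follow in part from which library was left out, for KO against HET as well. For KO against WT, 7 log2FC values were positive and 3 negative (median 0.07, against 0.0047 over all genes, of which 51.65% were positive). In limma 0 passed after adjustment and 0 before it, beside 0% and 0.822% of all genes. Of the 10, 1, *Rgs5*, had no overlap, beside 4.54% of all genes. Without KO replicate 3 or without WT replicate 1 the log2FC was positive for 5 and negative for 5. For KO against HET, 1 was positive and 9 negative (median -0.07, against -0.00099 over all genes, of which 49.62% were positive). In limma 0 passed after adjustment and 0 before it, beside 0% and 1.31% of all genes. Without overlap were 0 of the 10, beside 633 of all genes (4.45%). Negative values also prevailed in other cell types, at 10 of 10 striatal neuron, 6 of 6 oligodendrocyte, 6 of 6 microglia and 3 of 3 blood cell genes. They were 11 of 13 in fibroblast, 4 of 5 in macrophage, 5 of 7 in astrocyte and 5 of 7 in choroid plexus genes. The replicate block covered the WT libraries too. With it, 2 of the 10 (*Cldn5* and *Acta2*) had an unadjusted p under 0.05 in limma for KO against HET, beside 318 of all genes (2.23%). The same 2 did so for HET against WT, beside 365 (2.56%), and 1 (*Acta2*) for KO against WT, beside 310 (2.18%). In each comparison 0 passed the adjusted threshold in limma. The KO against HET values were 4 positive and 6 negative without HET replicate 3 (median -0.03), 5 and 5 without HET replicate 3 and KO replicate 3 (median -0.02), and 0 and 10 without HET replicate 1 (median -0.21), where 3 genes, *Cldn5*, *Tek* and *Acta2*, had an unadjusted p under 0.05 beside 223 of all genes (1.57%). Without the first library of each genotype, *Tek* and *Acta2* did so, that is 2 of the 10 for HET against WT, beside 93 of all genes (0.658%), and 2 for KO against HET, beside 140 (0.991%).

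**Figure D4:**
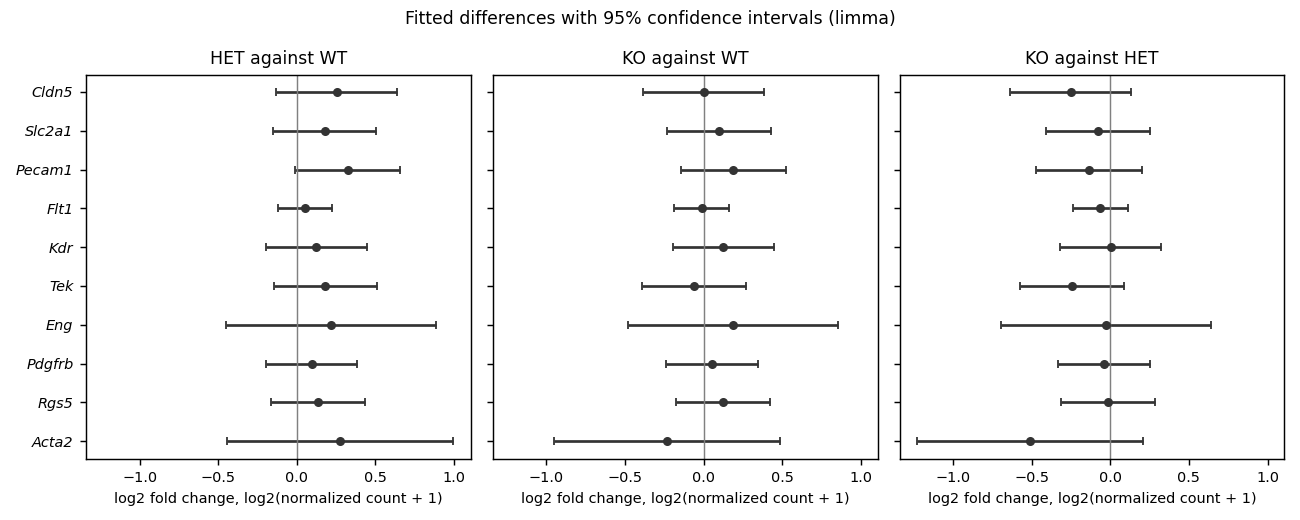
Fitted log2 fold changes on the log2(normalized count + 1) scale (x axis) of the 10 genes (y axis) for HET against WT, KO against WT and KO against HET, with 95% confidence intervals from limma as bars. Each of the 30 intervals includes 0, and those of *Acta2* and *Eng* are the widest.

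The deviations of single libraries from their genotype's mean recurred at the same replicate numbers, whose meaning the labels do not give. The first library was the lowest of each genotype for 5 of the 10 genes (*Cldn5*, *Kdr*, *Eng*, *Pdgfrb* and *Acta2*), against 1588 of all genes tested (11.2%). For *Acta2* the log2 deviations of the first libraries from their genotypes' means were -0.47 in WT, -0.64 in HET and -0.57 in KO. *Slc2a1* went the other way, at 0.28, 0.08 and 0.27. The third HET and KO libraries both lay above the other 7 for 3 of the 10 genes (*Pecam1*, *Eng* and *Pdgfrb*), against 2733 of all genes (19.2%), and both below for 0 of the 10, against 2339 of all genes (16.4%). The deviation of *Eng* was 0.61 in the third HET library and 0.54 in the third KO library, and that of *Flt1* was -0.01 and -0.08.

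Over the 9 libraries, with the genotype means removed, the deviations of *Cldn5* and *Acta2* had a Pearson correlation of 0.94, those of *Kdr* and *Acta2* 0.94, those of *Eng* and *Pdgfrb* 0.93 and those of *Tek* and *Rgs5* 0.90. Those of *Slc2a1* and *Acta2* had -0.85. Of the 45 pairs 33 were positive, with a median of 0.36. Each of these 4 highest pairs held an endothelial and a mural gene. The next highest were *Cldn5* and *Kdr*, both endothelial, at 0.89, and *Pdgfrb* and *Acta2*, both mural, at 0.87. Genes in none of the cell type lists reached 0.986 with *Cldn5*, 0.972 with *Rgs5* and 0.994 with *Acta2*. The share of positive pairs among all genes was not computed. These correlations describe 9 libraries that were scaled together.

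**Figure D5:**
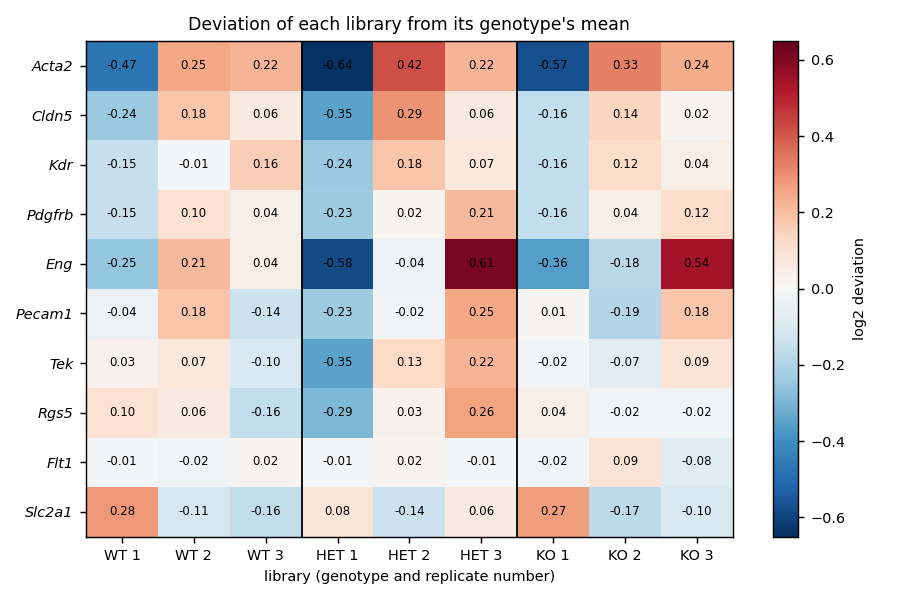
Log2 deviation from the mean of its genotype (colour and printed value) for each of the 10 genes (rows) in the 9 libraries (columns, by genotype and replicate number). The first column of each genotype is blue for *Acta2* (-0.47, -0.64 and -0.57) and red for *Slc2a1* (0.28, 0.08 and 0.27), and *Eng* is red in the third HET and KO libraries.

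Other vessel genes were counted from lists chosen by cell type. Of 32 further endothelial and blood-brain barrier genes 28 were tested and 0 passed either threshold in limma in any of the 3 comparisons. Their median log2FC was 0.09 for HET against WT (19 positive, 9 negative), -0.0004 for KO against WT (14 and 14) and -0.08 for KO against HET (5 and 23), and their summed normalized counts lay between 22917 and 25150 over all 9 libraries. *Tjp1*, the tight junction scaffold, was the highest of them at a mean of 3047. Of 15 further pericyte genes, with *Vtn*, which encodes the matrix protein vitronectin, as the highest at 1840, 0 passed either threshold, with medians of 0.08, 0.06 and -0.11 in the same order. Of 10 further smooth muscle genes, with *Myl9* highest at 622, 0 passed either threshold, and the medians were 0.17, -0.02 and -0.23.

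Among 27 ligands, co-receptors and other partners of these receptors, *Vegfa*, the growth factor bound by *Flt1* and *Kdr*, was the highest at a mean of 2778, and *Acvrl1* was the one gene past the unadjusted threshold, for KO against WT and KO against HET. The medians of the 27 were -0.01, 0.01 and -0.02. *Pdgfb*, the ligand of *Pdgfrb*, had normalized counts of 876 ± 97.7 in WT, 912 ± 86 in HET and 912 ± 93.5 in KO (SD, n = 3). It is named here for its role as that ligand.

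Low values in the first libraries were also seen outside the 10 genes, and 11.2% of all genes tested had the first library lowest in each genotype. The first library was lowest in each genotype for 7 of 28 further endothelial genes (*Cdh5*, *Vwf*, *Egfl7*, *Sox18*, *Foxq1*, *Fli1* and *Nos3*), for 6 of 15 pericyte genes, for 4 of 10 smooth muscle genes (*Myh11*, *Cnn1*, *Myl9* and *Lmod1*) and for 10 of 27 ligands and partners. *Vwf*, the clotting factor stored in endothelial cells, had 697.8, 1046 and 1075 in WT, 781.5, 1037 and 1532 in HET, and 543.5, 993.5 and 1459 in KO. It joined both patterns, lowest in the first library of each genotype and above the rest in the third HET and KO libraries. Of the 28 further endothelial genes 5 lay above the rest in both of these libraries and 5 below (*Slco1c1*, *Ptprb*, *Sox17*, *Tjp1* and *Icam2*), that is 17.9% each, beside 19.2% and 16.4% of all genes. These genes were picked by the pattern itself, after their values were seen.

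Markers of other cell types moved with these libraries. For 8 of 13 genes of perivascular fibroblasts and meninges the first library was the lowest of each genotype, beside 11.2% of all genes. The summed normalized counts of the 13 in the first libraries were 2007 in WT, 1556 in HET and 1280 in KO. These sums were below those of each of the other 6 libraries, which lay between 2465 and 5269. HET replicate 2, with 5269, was the highest library for 11 of the 13 and was also the highest for *Cldn5*, *Kdr* and *Acta2*. HET replicate 3, with 2465, was the highest for 0 of the 13 but for *Pecam1*, *Eng*, *Tek*, *Pdgfrb* and *Rgs5*. *Flt1* and *Slc2a1* were highest in KO libraries. *Igf2*, at a mean of 1036, was the highest of this list, and the collagen gene *Col1a1* ranged from 82.51 to 399. Their median log2FC was -0.11, -0.24 and -0.19 for HET against WT, KO against WT and KO against HET, with 0 of 13 past either threshold. The part of these cells in the values of *Acta2* and *Cldn5* was not tested.

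For genes of other cells the same count was made, beside the 11.2% of all genes. The first library was lowest in each genotype for 2 of 5 perivascular macrophage genes, 2 of 7 astrocyte genes, and 0 of the 3 blood cell, 7 choroid plexus, 10 striatal neuron, 6 oligodendrocyte and 6 microglia genes tested. Summed blood cell counts, mainly *Hba-a2*, ranged from 1624 to 3926 in WT, from 2651 to 3248 in HET and from 1813 to 2463 in KO. *Ttr*, the defining transcript of the choroid plexus, fell below the filter and lay between 0 and 26.55 in the 9 libraries. The sum of the 7 choroid plexus genes tested, which leaves out *Ttr*, lay between 186 and 337. *Clic6* was the highest of these, at a mean of 154. Macrophage sums lay between 147 and 366, with *Mrc1* highest at 135 on average. In these 5 macrophage genes the medians were -0.10, -0.31 and -0.21.

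The neuronal and glial background differed between libraries too. The summed counts of the striatal neuron genes were lowest in KO replicate 3 (66629) and WT replicate 3 (75913) and lay between 96536 and 151003 in the other 7 libraries, with list medians of 0.04, -0.32 and -0.39. Oligodendrocyte genes, led by *Mbp* at 92801, summed to between 132901 in KO replicate 3 and 253632 in WT replicate 3, with medians of 0.33, 0.03 and -0.31. Astrocyte genes, led by *Slc1a2* at 87776, summed to between 108318 and 126631, with medians of 0.05, 0.03 and -0.02. Microglia genes, led by *Csf1r* at 3850, summed to between 10257 and 12086, with medians of 0.03, -0.05 and -0.07. Choroid plexus and blood cell genes had medians of 0.28, 0.21 and -0.07, and of 0.22, -0.18 and -0.40. In none of these lists did a gene pass either threshold in limma. With WT replicate 3 and KO replicate 3 left out, 10 of the 10 vessel genes had a positive log2FC for HET against WT and 7 for KO against WT, where *Flt1* and *Eng* had changed sign.

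GC content of transcripts was related to the deviations of several libraries. Across genes the correlation of GC content with the deviation was -0.16, -0.15 and -0.12 in the first WT, HET and KO libraries and 0.13 in the second WT library and the third HET and KO libraries, and genes are not independent replicates here. The fifth of genes with the highest GC content, above 56.2%, had a median deviation of 0.05 in the second WT, 0.08 in the third HET and 0.07 in the third KO library. *Eng*, with 57.39% GC, deviated by 0.61 and 0.54 there, and *Cldn5*, with 60.45%, by 0.06 and 0.02. With the deviations centred by GC content, the HET against WT log2FC of the 10 genes was again positive for 10, with a median of 0.18.

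The 10 genes lie on 8 chromosomes, and their reads are mostly their own. *Acta2* lies at chr19:34241090-34255590 on the minus strand with 9 exons in the longest coding transcript, *Eng* at chr2:32646595-32682669 on the plus strand with 15, and *Cldn5* at chr16:18776847-18778262 on the plus strand with 1 (GRCm38). *Flt1*, at chr5:147561604-147726011, and *Kdr*, at chr5:75932827-75978458, lie on the same chromosome and have 30 exons each. *Tek*, at chr4:94739289-94874976, and *Slc2a1*, at chr4:119108711-119137983, share chromosome 4. The share of stretches of 31 bases in the annotated transcripts that also occur in another gene was 2.11% for *Pecam1*, 1.39% for *Acta2*, 0.357% for *Flt1*, 0.144% for *Kdr*, 0.0664% for *Rgs5*, and 0% for the other 5. The genes sharing the most stretches with *Acta2* were the actin gene *Actg1* and 2 pseudogenes, and any further ones were not recorded. Of the other actin genes, *Actb* had normalized counts of 32273 to 40266 in WT, 34297 to 61907 in HET and 34410 to 52822 in KO. *Actg1*, which shares stretches with *Acta2*, had 35972 to 44733, 35394 to 81255 and 34972 to 66663, and *Acta1* had 262.5 to 341.6, 304.3 to 700 and 277.4 to 566.9. In each of these 3 genes the third HET and KO libraries were the highest of the 9, whereas *Acta2* was highest in the second library of each genotype. *Actg2* lay between 0 and 3.944.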

How the data were processed

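The striatal transcriptome was measured in 3 WT, 3 HET and 3 KO mice, and libraries were grouped by their labels. The authors quantified transcripts with Salmon (0.9.1) on GRCm38 with GC bias correction, summed them per gene with tximport in R (3.6.0), and deposited normalized counts (signal) divided by DESeq2 (1.19.11) size factors. The transcript annotation is not given in the sources used here, and 0 columns were left unused. Whole reads could not be recovered, so the planned test for normalized values was used.

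Values were transformed as log2(normalized count + 1), which understates changes of low genes. Genes at 10 or more in at least 3 libraries were fitted with limma 3.58.1 (trend) in R 4.3.3, all genotypes together, with Benjamini-Hochberg adjustment at 0.05. Exact permutation tests were two-sided. Libraries were compared for duplication, and 0 genes had identical nonzero values in any pair. Figures were drawn with matplotlib 3.10.9.

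Members, lists and tests were chosen with earlier results of these data known. Named were the 10 genes, the other actins, the highest gene of each list, and list genes with an unadjusted p under 0.05, and the 5 genes most like *Cldn5*, *Rgs5* and *Acta2* across libraries, and others are said to be chosen by role or after their values were seen. The lists cover endothelial, pericyte, smooth muscle, ligand, fibroblast, macrophage, blood, choroid plexus, striatal neuron, astrocyte, oligodendrocyte and microglia genes. *Ly6c1*, *Ly6a*, *Slco1a4*, *Ctla2a*, *Cbr2*, *Hba-a1*, *Hbb-bs* and *Actc1* were not used here.

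To see whether replicate numbers pair libraries, deviations from the genotype means were correlated across genes between libraries of the same number. HET and KO correlated at 0.5154, 0.2814 and 0.506, WT and KO at 0.2432, -0.2207 and 0.02437, and WT and HET at 0.3187, -0.0142 and 0.005377. Only HET and KO were therefore read as paired by number, but the replicate block was fitted to all 9 libraries, WT included. The block values for HET and KO against WT thus rest on a pairing of WT by number that replicates 2 and 3 did not show. The spread behind the KO against HET block values includes the WT libraries too. Alternatives were normalization, pseudocount, filter, variance trend, compared genotypes alone, a replicate block and leaving out each library.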

Additional observations from a re-analysis of the deposited data

How the results depend on the processing

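Of 33 log2FC values (10 genes and *Acvrl1* in 3 comparisons) 19 kept their direction in every setting, and 0 passed an adjusted p of 0.05 in any of 21 settings. The replicate block gave 2 of the 10 genes at an unadjusted p under 0.05 for HET against WT, 1 for KO against WT and 2 for KO against HET, and 365, 310 and 318 of all genes, with 0 adjusted. Leaving out the first library of each genotype or the third WT and KO libraries, and GC centring, were chosen after seeing the data. The first gave 2 of the 10 genes for HET against WT, beside 93 of all genes (0.658%), and 2 for KO against HET, beside 140 (0.991%). Of all genes at an unadjusted p under 0.05, HET against WT had 93 without the first libraries, 271 without the third HET and KO libraries and 350 without the third WT and KO libraries, and KO against WT had 76 with the filter at 50, 176 without the trend, 217 without the third HET and KO libraries and 338 without the third WT and KO libraries. With each library left out these counts ranged from 116 to 393 for HET against WT, 70 to 289 for KO against WT and 141 to 298 for KO against HET. Of the 10 genes they ranged from 0 to 4, 0 to 0 and 0 to 3, the highest without HET replicate 1. That library was the lowest HET library for 9 of the 10 genes.

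Without the third HET and KO libraries the log2FC was -0.0896 for *Eng* and -0.0110 for *Pdgfrb* for HET against WT, -0.007155 for *Cldn5*, 0.0245 for *Flt1*, -0.0815 for *Eng* and -0.00813 for *Pdgfrb* for KO against WT, and 0.008096 for *Eng*, 8.89e-05 for *Slc2a1*, 0.002837 for *Pdgfrb* and 0.13 for *Rgs5* for KO against HET. Without the first libraries it was -0.0405 for *Cldn5* (KO against WT) and -0.0380 for *Kdr* (KO against HET). Without the third WT and KO libraries it was 0.0348 for *Flt1* and -0.0592 for *Eng* (KO against WT) and -0.0211 for *Kdr* (KO against HET). GC centring gave -0.0165 for *Cldn5* (KO against WT) and quantile normalization -0.002402 for *Kdr* (KO against HET). With each library left out, HET against WT ranged from -0.0896 to 0.51 for *Eng*, -0.0110 to 0.21 for *Pdgfrb* and -0.34 to 0.11 for *Acvrl1*. KO against WT ranged from -0.12 to 0.0932 for *Cldn5*, -0.0595 to 0.0245 for *Flt1*, -0.0815 to 0.37 for *Eng*, -0.0386 to 0.24 for *Slc2a1*, -0.0202 to 0.13 for *Pdgfrb* and -0.47 to 0.0482 for *Acta2*. KO against HET ranged from -0.12 to 0.0897 for *Kdr*, -0.32 to 0.28 for *Eng*, -0.22 to 0.00388 for *Slc2a1*, -0.15 to 0.0633 for *Pdgfrb* and -0.16 to 0.12 for *Rgs5*. The cause was not tested.

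With 3 mice per genotype the standard errors of the 10 genes lay between 0.08 and 0.32 on the log2 scale, and the depth in reads behind a value is unknown.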

Other observations

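The genes whose deviations from the genotype means were most like those of *Cldn5*, *Rgs5* and *Acta2* over the 9 libraries were mostly in none of the cell type lists. For *Cldn5* they were *Nkx2-2*, *Fscn1*, *Tmem265*, *Trim27* and *P2ry13*, with Pearson correlations from 0.986 to 0.968. For *Rgs5* they were *Dnlz*, *Dock3*, *Cep128*, *Eps8l1* and *Lair1*, from 0.972 to 0.951, and for *Acta2* *H2-Ab1*, *Prr12*, *Mycn*, *Sf3a2* and *Atn1*, from 0.994 to 0.983. Of the nearest 50 genes, 3 for *Cldn5* were in the lists (*Tgfb1*, *Acta2* and *Lmod1*), 1 for *Rgs5* (*Tek*) and 5 for *Acta2* (*Cd248*, *Igf2*, *Kdr*, *Cldn5* and *Tgfbr2*, of which *Igf2* is in the fibroblast and meningeal list). With 9 libraries and 14239 genes, high values arise for many genes, and these are given as a description.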
